A study of Mus musculus with 8 samples.

Results

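The genes described here are 10 genes of the oligodendrocyte precursor and of the regulators that carry it towards the myelinating cell: *Olig1*, *Olig2*, *Sox10*, *Sox8*, *Nkx2-2*, *Myrf*, *Pdgfra*, *Cspg4*, *Gpr17* and *Enpp6*. They were chosen by name as known members of this lineage, and each is represented by its annotated transcript with the lowest Ensembl number. All 10 were found among 38031 genes in the count table. They were measured by RNA-seq in primary motor cortex (M1) of male wildtype Swiss Webster mice, with 4 libraries from *Fezf2 shRNA*-treated and 4 from *non-silencing shRNA*-treated M1. Both groups received a lentivirus at P21 to P25 and were harvested at P49 to P53. Both viruses carried mCherry and an shRNA behind a *Synapsin I* promoter, which is active in neurons, so that oligodendrocyte lineage cells are not the cells the promoter was chosen for. M1 was cut out by its mCherry signal, with all cortical layers and the meninges, and total RNA was sequenced. Each library is therefore a mixture of all cell types of M1, and the comparison asks whether these genes differ between *Fezf2 shRNA*-treated and control tissue.

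Oligodendrocyte precursors are dividing glial cells spread through the adult cortex, marked by the PDGF receptor α (*Pdgfra*) and the NG2 proteoglycan (*Cspg4*). OLIG2 specifies the lineage and maintains SOX10, SOX10 and NKX2-2 direct the step to differentiation, and MYRF together with SOX10 switches on the myelin genes. Cells that have just left the precursor state pass through a short phase that expresses *Gpr17* and then, as newly formed oligodendrocytes, *Enpp6*.

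The libraries held 54684016 to 58003814 counts on genes, so that the replicate spread rather than the counting error limited most of the values. *Fezf2*, the targeted gene, had normalized counts of 688, 767, 735 and 702 in control replicates 1 to 4 and of 621, 583, 568 and 592 in *Fezf2 shRNA* replicates 1 to 4. The treatments did not overlap for *Fezf2*, and its log2 fold change was -0.29 with a standard error of 0.0760 (adjusted p = 0.0765 by the quasi-likelihood test of edgeR). DESeq2 gave *Fezf2* an adjusted p of 0.0256. With an offset for gene length in the edgeR fit its log2 fold change was -0.18 (adjusted p = 0.43). Normalized counts are raw counts scaled to the mean effective size of the 8 libraries.

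The *Fezf2 shRNA* was compared with the transcripts of the 10 genes, since a long shared stretch would bear on a direct effect of the hairpin. Its sense strand is 19 nt long and lies whole in the coding sequence of *Fezf2*, whereas the longest stretch shared with any of the 10 genes was 9 nt, in *Sox10*, *Myrf* and *Pdgfra*. The lines give the target of the hairpin in *Fezf2* and the 19 nt of each transcript that align with it, all in coding sequence of the GENCODE M21 transcripts, 5′ to 3′, with the shared stretch in capitals.
*Fezf2*, transcript nt 1531 to 1549: GGGAACTACAAGAATCACA
*Sox10*, transcript nt 900 to 918: gctcACTACAAGAgtgccc
*Myrf*, transcript nt 1243 to 1261: gctAACTACAAGgagctgc
*Pdgfra*, transcript nt 2460 to 2478: gcctcCTACAAGAAgaaat
*Olig1*, transcript nt 544 to 562: cgcAACTACAtcctgctgc
Sense stretches of at least 9 nt were shared by 10.5% of the 55450 annotated genes searched. In *Olig1* the sense stretch was 7 nt. With the opposite strand of the hairpin the longest stretch was also 9 nt, in the 3′ untranslated region of a *Pdgfra* transcript, and 7.7% of genes share at least 9 nt with that strand. The sites of the 9-nt sense stretches are in exon 3 of 4 of *Sox10* (chr15:79159207-79159215), exon 7 of 27 of *Myrf* (chr19:10223122-10223130) and exon 16 of 23 of *Pdgfra* (chr5:75183120-75183128). Whether such short stretches silence a transcript was not tested.

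None of the 10 genes was past the threshold used for all genes (adjusted p up to 0.05, with a log2 fold change of 0.2 or more in either direction). Of the 10, 7 had over 8 CPM, counts scaled to a common library total, in at least 4 libraries and entered the main test, in which 0 rose and 0 fell. Over all 9959 genes tested, 2.19% passed the threshold and 0.131% passed it as decreased. *Olig2*, *Sox10* and *Nkx2-2* did not have over 8 CPM in at least 4 libraries and were tested in a second fit of the 16481 genes over 1 CPM. Of those genes 0.674% passed the threshold, and none of these 3 was among them. *Sox10* had 352, 567, 471 and 726 raw counts in control replicates 1 to 4 and 290, 275, 359 and 350 in *Fezf2 shRNA* replicates 1 to 4. The filter counts libraries of both treatments, so the lower *Fezf2 shRNA* libraries also kept *Sox10* out of the main test. At an unadjusted p under 0.05, *Olig1* and *Gpr17* of the 7 were lower in *Fezf2 shRNA*-treated M1, against 7.85% of all genes, and with *Sox10* they made 3 of 10 in the second fit, against 6.24%. Log2 fold changes were below 0 for all 7 genes of the main test, against 56.6% of all genes, and for 9 of 10 in the second fit, against 55.7%. The median log2 fold change was -0.24 over the 7 and -0.22 over the 10 genes, beside -0.03 over all genes tested. In a tissue sample, fewer cells of a type and less RNA per cell cannot be told apart.

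**Figure D1:**
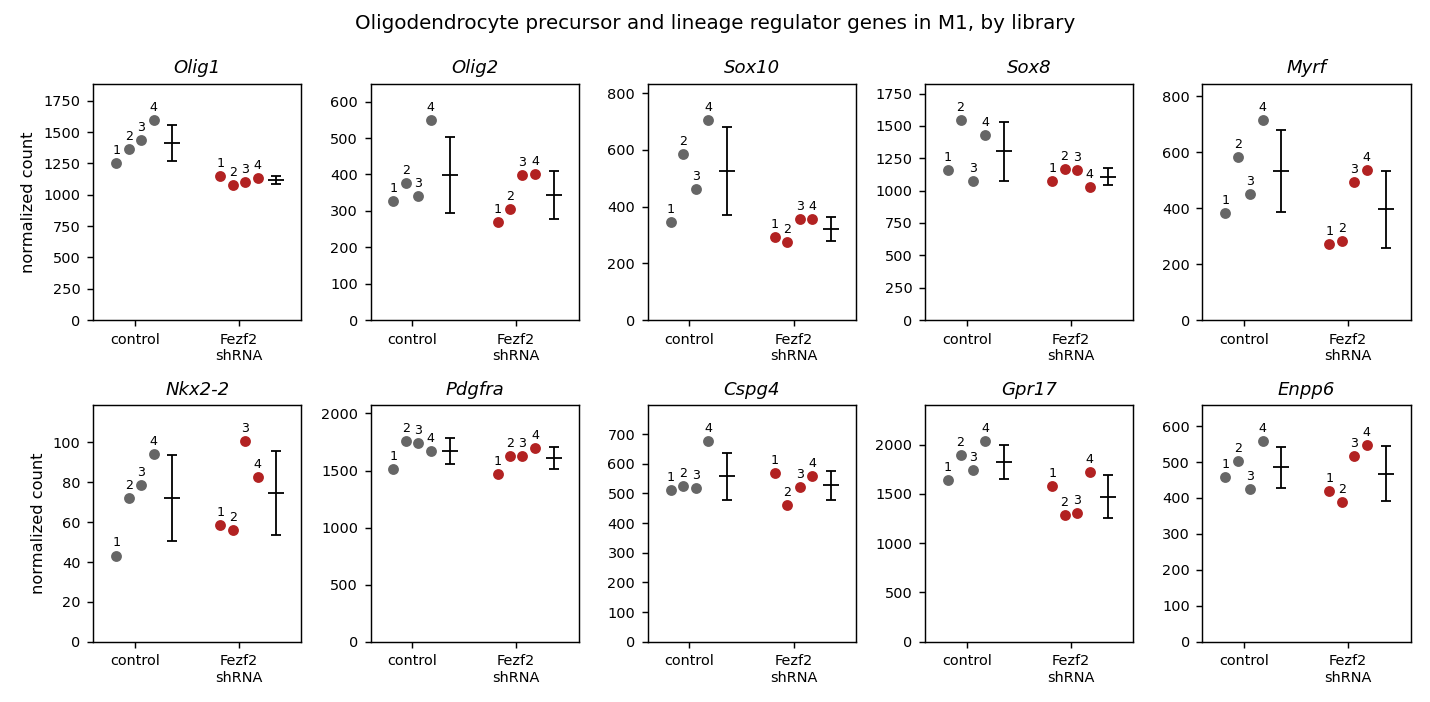
Normalized counts (y axis, from 0) of the 10 genes in each library, with the replicate number above each point, controls in grey and *Fezf2 shRNA* in red; the black marks are the mean and SD (n = 4). *Olig1* is the only one of the 10 whose treatments do not overlap, and control replicate 4 is the highest library for 7 of the 10.

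*Olig1*, a basic helix-loop-helix factor that acts beside OLIG2 in maturation, showed the clearest difference of the 10. It is a gene of 1 exon on the plus strand of chromosome 16 (GRCm38, chr16:91269772-91271933), so all of its counted interval is exonic. Normalized counts were 1255, 1362, 1439 and 1599 in control replicates 1 to 4, and 1147, 1080, 1100 and 1134 in *Fezf2 shRNA* replicates 1 to 4. All 4 *Fezf2 shRNA* libraries lay below all 4 controls, and they lay close together, with a mean of 1115 ± 30.8 (SD, n = 4) against 1414 ± 145 (SD, n = 4). The change in the mean was -21.1%, and on the log2 scale -0.34 (standard error 0.0795). The edgeR adjusted p of 0.0557 just missed the threshold. The two-sided exact permutation test gave p = 0.0286, the smallest that 4 against 4 libraries allow. Groups in which every *Fezf2 shRNA* library lay below every control occurred for 4.41% of the genes over 8 CPM and for 3.82% of those over 1 CPM. The call on *Olig1* depended on the tool. DESeq2 gave an adjusted p of 0.00598, and 0.944% of all genes were decreased by that test. The robust form of the edgeR fit gave 0.0461 (0.221% of genes decreased). A looser threshold in the main fit, adjusted p at most 0.1 with no fold limit, also took it in (0.703% decreased). With an offset for gene length the log2 fold change was -0.23 and the adjusted p 0.348. When 1 library was left out, the log2 values lay between -0.40 (control replicate 1 left out) and -0.28 (control replicate 4 left out).

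*Olig2*, the factor that specifies the lineage, is the neighbour of *Olig1* on the same strand (chr16:91225457-91228677). Its normalized counts were 327, 378, 340 and 550 in control replicates 1 to 4. In *Fezf2 shRNA* replicates 1 to 4 they were 270, 306, 399 and 401. The treatments overlapped, with control replicate 4 far above the other controls. On the log2 scale the change was -0.21 (standard error 0.186, edgeR adjusted p = 0.594 in the fit over 1 CPM), and -0.11 with the gene-length offset. Without control replicate 4 it was -0.02, so the difference rested on that library. Its 95% interval ran from -0.62 to 0.20, and a difference between the neighbours in their response was not tested.

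*Sox10*, the SRY-box factor needed at all later steps of the lineage, had the largest fold change of the 10 and a wide spread among controls. It lies on the minus strand of chromosome 15 (chr15:79154913-79164490), with 31.2% of the interval exonic. Controls had 346, 585, 463 and 706 normalized counts in replicates 1 to 4, and *Fezf2 shRNA* libraries had 293, 276, 357 and 358. Control replicate 1 lay within the range of the *Fezf2 shRNA* libraries, and the other controls lay above all of them. The mean was 321 ± 42.6 (SD, n = 4) against 525 ± 155 (SD, n = 4). The log2 fold change of -0.71 (standard error 0.196) had an edgeR adjusted p of 0.126 in the fit over 1 CPM, and the two-sided exact permutation test gave p = 0.0857. DESeq2 on the same genes over 1 CPM gave an adjusted p of 0.0137, where 0.664% of the genes with an adjusted p were decreased. Leaving out control replicate 1 gave -0.86, leaving out control replicate 4 gave -0.54, and the gene-length offset gave -0.63 (adjusted p = 0.322).

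*Sox8*, a SOX10 relative that overlaps with it in function, lies on chromosome 17 (chr17:25565892-25570686, minus strand). Controls had 1159, 1548, 1071 and 1433 normalized counts in replicates 1 to 4, against 1072, 1164, 1158 and 1031 in *Fezf2 shRNA* libraries. Control replicates 2 and 4 were above all *Fezf2 shRNA* libraries, and control replicates 1 and 3 were among them. *Sox8* had a log2 fold change of -0.24 (standard error 0.114; edgeR adjusted p = 0.276). Without control replicate 2 it was -0.14, and with the gene-length offset -0.13 (adjusted p = 0.729).

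*Nkx2-2*, a homeodomain factor of the differentiation step, was the lowest of the 10, with 44 to 101 raw counts per library over the interval chr2:147183083-147186404. Normalized counts were 43.3, 72.3, 78.7 and 94.3 in control replicates 1 to 4 and 58.5, 56.3, 101 and 82.7 in *Fezf2 shRNA* replicates 1 to 4. The treatments lay across the same range, and the log2 fold change was 0.05 (standard error 0.277, edgeR adjusted p = 0.949 in the fit over 1 CPM), and 0.15 with the gene-length offset. The 95% interval from -0.56 to 0.66 would hold the value of every other gene of the 10 except *Sox10*. The antisense gene *Nkx2-2os* covers 69.9% of this interval, and the counts do not separate strands.

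*Myrf*, the membrane-bound factor that drives myelin genes, lies on the minus strand of chromosome 19 (chr19:10208272-10240748). Controls had 383, 582, 450 and 717 normalized counts in replicates 1 to 4. *Fezf2 shRNA* replicates 1 and 2 had 273 and 282, below all controls, but replicates 3 and 4 had 494 and 535, within the control range. For *Myrf* the log2 fold change was -0.43 with a standard error of 0.255 (edgeR adjusted p = 0.360), a difference smaller than the spread between replicates. Leaving out control replicate 4 gave -0.25, and leaving out *Fezf2 shRNA* replicate 4 gave -0.61.

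The surface markers by which precursors are usually counted showed small differences. *Pdgfra*, the receptor for the PDGF that keeps precursors dividing, spans chr5:75152306-75198215 on the plus strand. It had 1514, 1755, 1742 and 1671 normalized counts in control replicates 1 to 4 and 1472, 1624, 1628 and 1701 in *Fezf2 shRNA* replicates 1 to 4. The libraries lay within 1.19-fold of each other, the narrowest range of the 10 genes. The log2 fold change was -0.06 (standard error 0.0718, edgeR adjusted p = 0.689), and its 95% interval ran from -0.21 to 0.10.

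*Cspg4*, the NG2 core protein, which pericytes also make, lies on the plus strand of chromosome 9 (chr9:56865033-56899870). It had 510, 526, 518 and 675 normalized counts in control replicates 1 to 4 and 570, 460, 521 and 559 in *Fezf2 shRNA* replicates 1 to 4. The first 3 controls were close together and the fourth stood apart. The log2 fold change was -0.08 (standard error 0.116, edgeR adjusted p = 0.725), and 0.03 without control replicate 4.

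*Gpr17*, a G protein-coupled receptor of the committed precursor, was lower in most but not all *Fezf2 shRNA* libraries. Normalized counts were 1641, 1896, 1738 and 2032 in control replicates 1 to 4 and 1578, 1282, 1307 and 1723 in *Fezf2 shRNA* replicates 1 to 4. Only *Fezf2 shRNA* replicate 4 reached the control range, where it lay above control replicate 1. The means were 1827 ± 173 (SD, n = 4) in controls and 1473 ± 214 (SD, n = 4) in *Fezf2 shRNA*-treated M1. The log2 fold change was -0.31 (standard error 0.107) with an edgeR adjusted p of 0.151, and the two-sided exact permutation test gave p = 0.0571. The difference did not pass either threshold. With the gene-length offset it was -0.20 (adjusted p = 0.576).

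*Enpp6*, the choline-specific phosphodiesterase used to find newly formed oligodendrocytes, has the longest interval of the 10 (chr8:46986887-47096762, 109876 bp, 5.8% exonic). Its normalized counts were 457, 503, 424 and 557 in control replicates 1 to 4, against 420, 388, 516 and 548 in *Fezf2 shRNA* replicates 1 to 4. The ranges overlapped almost whole, and the log2 fold change was -0.05 (standard error 0.134, edgeR adjusted p = 0.848). It was 0.03 without *Fezf2 shRNA* replicate 2 and -0.17 with the gene-length offset (adjusted p = 0.689).

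**Figure D2:**
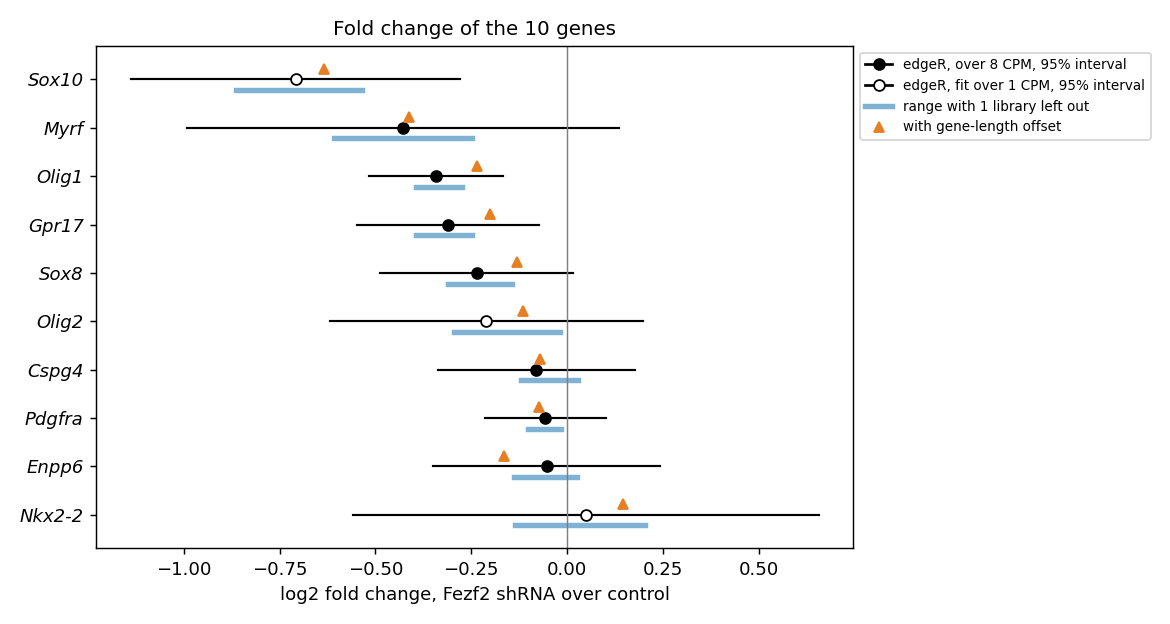
Log2 fold change (x axis, *Fezf2 shRNA* over control) of each gene, ordered by size, with the edgeR 95% interval (black line), the range when 1 library is left out (blue) and the value with the gene-length offset (orange). Filled points are genes over 8 CPM and open points those tested in the fit over 1 CPM; *Sox10*, *Olig1* and *Gpr17* are the genes whose unadjusted interval lies below 0.

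Gene length moved with the comparison over all genes. Among the genes tested, the median log2 fold change was -0.12 for the 2154 genes under 10 kb, -0.07 for 10 to 30 kb, 0.01 for 30 to 100 kb, 0.15 for 100 to 300 kb and 0.29 over 300 kb. Of the 7 genes of the main test, *Olig1*, *Sox8* and *Gpr17* are in the shortest class. Their log2 fold changes were -0.34, -0.24 and -0.31 against the class median of -0.12. *Olig2*, *Sox10* and *Nkx2-2*, outside the main test, also span under 10 kb and had -0.21, -0.71 and 0.05 in the fit over 1 CPM. *Myrf*, *Pdgfra* and *Cspg4* are in the class of 30 to 100 kb, and *Enpp6* is in that of 100 to 300 kb, where its -0.05 lies below the class median of 0.15. With the length offset, 0.0201% of all genes passed the threshold and none of the 10 did, and their median over the 7 was -0.17. Over all genes the median under that offset was -0.01, and all 7 log2 fold changes were below 0. The part of gene length in the differences was not tested beyond this offset.

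Counts were taken over whole genomic intervals, introns included, and levels are compared between genes per kb of interval. *Olig1* had the highest level, with a mean of 585 normalized counts per kb over the 8 libraries. *Sox8* and *Gpr17* followed with 251 and 248, closer to each other than the spread between their libraries, and *Olig2* had 115. *Sox10* had 44.2, *Pdgfra* 35.7 and *Nkx2-2* 22.1 per kb. *Cspg4* and *Myrf* had 15.6 and 14.3 per kb, again within their spread, and *Enpp6* had the lowest level with 4.34. The exonic share of the intervals differs as well, from all of *Olig1* to 5.8% of *Enpp6*.

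Where the annotation nests transcripts, a gene could be split. The interval of the shorter *Enpp6* transcript ENSMUST00000119686 is 95841 bp long and 2.0% exonic. There, control replicates 1 to 4 had 111, 161, 112 and 176 normalized counts and *Fezf2 shRNA* replicates 1 to 4 had 79.7, 82.4, 127 and 162. In the last 13968 bp, 31.4% exonic, controls had 346, 342, 312 and 381 and *Fezf2 shRNA* libraries 340, 306, 388 and 385. In the first part *Fezf2 shRNA* replicates 1 and 2 were below all controls, and replicates 3 and 4 lay within the control range. The treatments thus overlapped in both parts, and both parts are mostly intronic. The log2 ratio of the first to the last part was -1.33 ± 0.273 (SD, n = 4) in controls and -1.71 ± 0.368 (SD, n = 4) in *Fezf2 shRNA*-treated M1, a difference of about the size of the spread.

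In *Sox8*, the first 1977 bp had a mean of 409 ± 83.8 (SD, n = 4) normalized counts in controls and 312 ± 44.6 (SD, n = 4) in *Fezf2 shRNA* libraries. The remaining 2818 bp, 77.7% exonic, had 894 ± 145 (SD, n = 4) and 794 ± 29.2 (SD, n = 4). Both parts overlapped between the treatments. *Gpr17* lies on the minus strand wholly inside *Lims2*, a focal adhesion gene on the plus strand, and its interval held 83.8% to 90.1% of the counts of *Lims2*. Outside *Gpr17*, *Lims2* had 239, 230, 192 and 392 normalized counts in control replicates 1 to 4 and 219, 188, 194 and 214 in *Fezf2 shRNA* replicates 1 to 4. Control replicates 1, 2 and 4 were above all *Fezf2 shRNA* libraries, with replicate 4 again the highest, and control replicate 3 lay among them. The counts of *Gpr17* therefore include any *Lims2* reads of this stretch, which cannot be told apart.

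**Figure D3:**
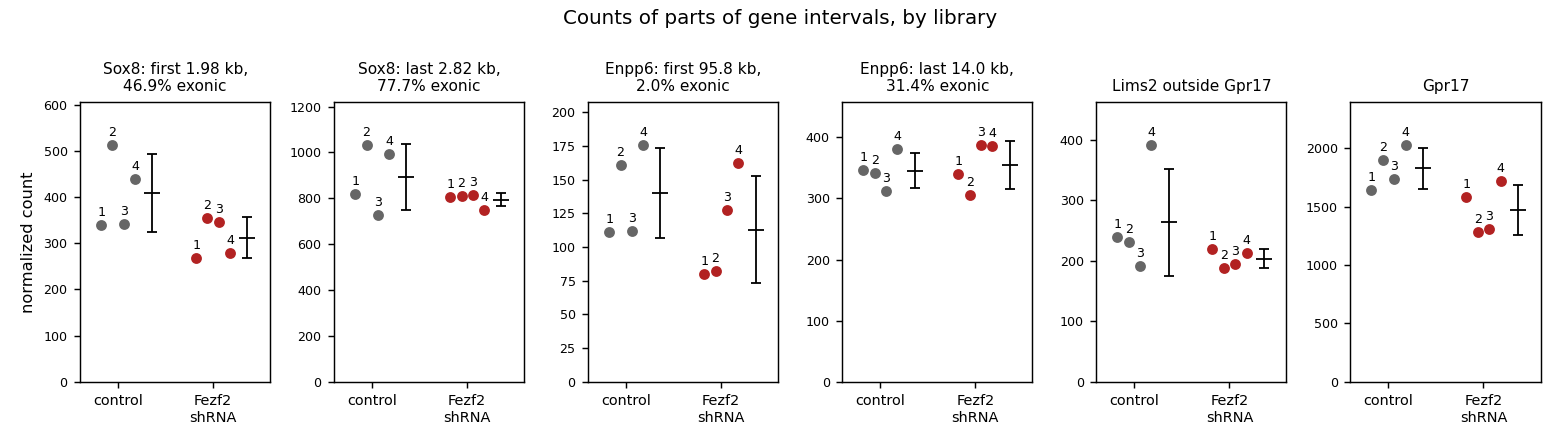
Normalized counts (y axis, from 0) of parts of the *Sox8*, *Enpp6*, *Lims2* and *Gpr17* intervals in each library, numbered by replicate, with mean and SD (n = 4) in black. The treatments overlap in every part, and *Gpr17* holds most of the counts of the *Lims2* interval around it.

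Control replicate 4 was the highest of all 8 libraries for 7 of the 10 genes (*Olig1*, *Olig2*, *Sox10*, *Myrf*, *Cspg4*, *Gpr17* and *Enpp6*), and for 19.1% of all genes over 1 CPM. *Sox8* and *Pdgfra* were highest in control replicate 2 and *Nkx2-2* in *Fezf2 shRNA* replicate 3. *Fezf2 shRNA* replicates 1 and 2 were the lowest for 3 and 5 of the 10 genes, and for 10.4% and 12.3% of all genes. *Nkx2-2* was lowest in control replicate 1 and *Sox8* in *Fezf2 shRNA* replicate 4. The median level over the 10 genes, as log2 relative to each gene's mean over the 8 libraries, was -0.10, 0.11, 0.06 and 0.34 in control replicates 1 to 4. In *Fezf2 shRNA* replicates 1 to 4 it was -0.16, -0.27, -0.02 and 0.07. The treatments overlapped in this median, through control replicates 1 and 3 and *Fezf2 shRNA* replicates 3 and 4.

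Genes of mature oligodendrocytes were also highest in control replicate 4 and lowest in *Fezf2 shRNA* replicates 1 and 2, over a wider range. Of 12 myelin genes, 11 were over 8 CPM, with 0 past the threshold in either direction and 11 below 0, at a median log2 fold change of -0.52. Over 1 CPM all 12 were below 0, against 55.7% of all genes, and in 2 every *Fezf2 shRNA* library was below every control, against 3.82%. Their median level was -0.02, 0.25, 0.17 and 0.75 in control replicates 1 to 4 and -0.52, -0.64, 0.02 and 0.08 in *Fezf2 shRNA* replicates 1 to 4. Their summed normalized counts ran from 67771 to 122300 in controls and from 49981 to 81986 in *Fezf2 shRNA* libraries, highest in control replicate 4 and lowest in *Fezf2 shRNA* replicate 2. *Mbp*, the myelin basic protein, had a log2 change of -0.31 (standard error 0.233, edgeR adjusted p = 0.466). *Myrf*, *Sox10* and *Olig2* are expressed in mature oligodendrocytes as well as in precursors, and how much of their counts came from each cell type was not tested.

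**Figure D4:**
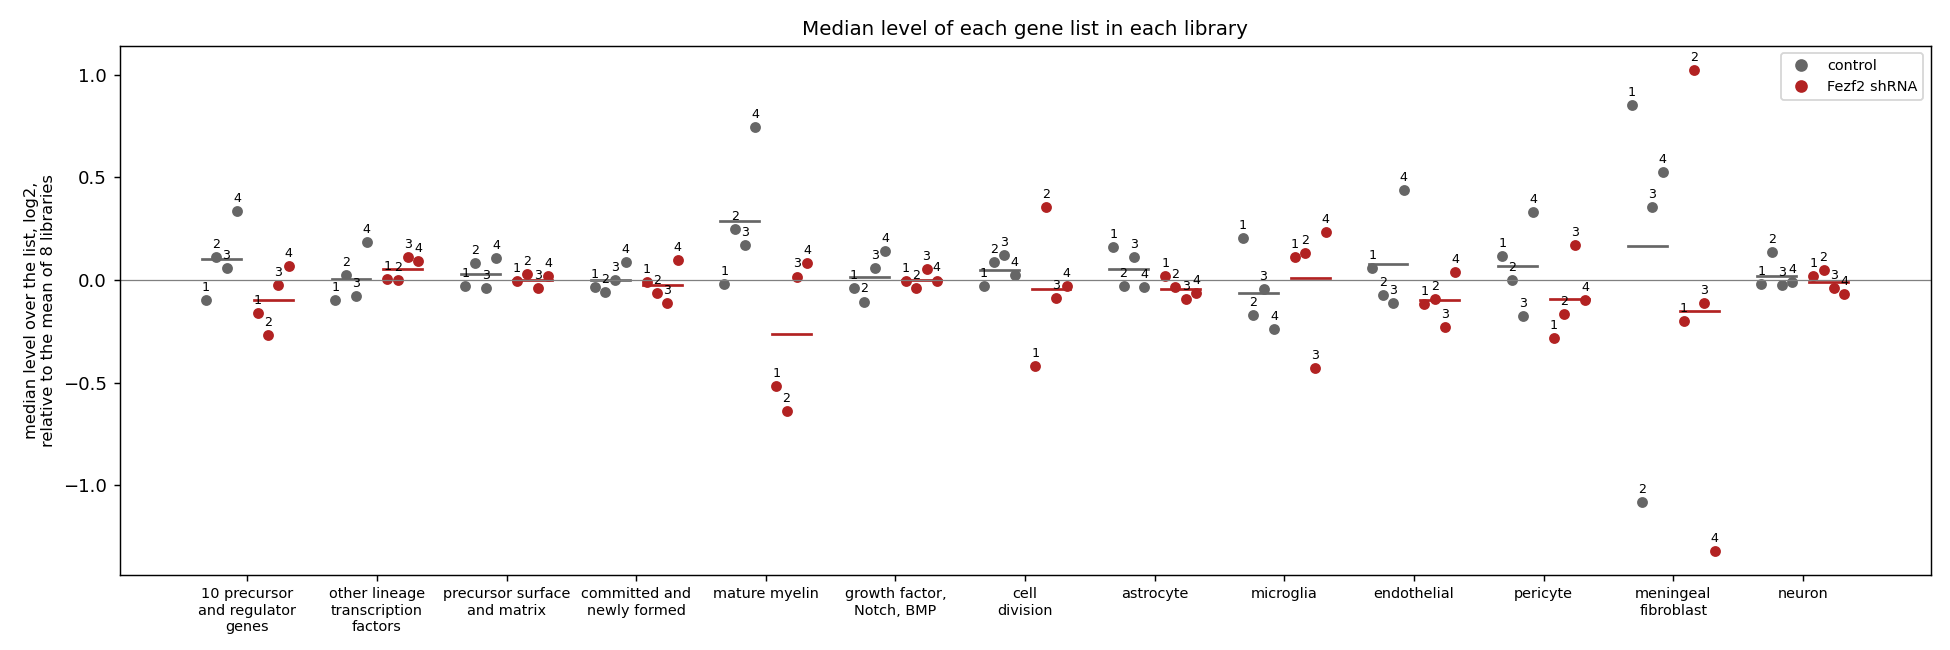
Median level over each gene list (y axis, log2 relative to each gene's mean over the 8 libraries, genes over 1 CPM) in each library, numbered by replicate, with controls in grey and *Fezf2 shRNA* in red; lines are group means of the 4 medians. The myelin list spans from -0.64 to 0.75, the 10 genes from -0.27 to 0.34 and the meningeal fibroblast list from -1.32 to 1.02, with the treatments overlapping in each of these lists.

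Other genes of the lineage were counted in the same fits. Of 21 further transcription factors of the lineage, 13 were over 8 CPM, 1 rose, 0 fell and 2 were below 0, with a median log2 fold change of 0.08. Over all genes tested 2.06% rose and 56.6% were below 0, so 1 of 13 cannot be read as a result about the list. The split depended on the filter: over 1 CPM 8 of 21 were below 0, with a median of 0.02, and with the length offset the median was -0.02. The 1 that rose was *Zfp488*, a zinc finger protein that works with OLIG2. It had 5042, 5394, 4644 and 4472 normalized counts in control replicates 1 to 4 and 7068, 5779, 6702 and 6107 in *Fezf2 shRNA* replicates 1 to 4. The treatments did not overlap. In 3 of the 21 factors over 1 CPM every *Fezf2 shRNA* library lay above every control, and in 1 every such library lay below. The share of all genes that lay above in this way was not counted. The log2 fold change of *Zfp488* was 0.39 (standard error 0.0819, edgeR adjusted p = 0.0378). The call was lost in the fit over 1 CPM (adjusted p = 0.0671), with no filter (0.0798), with the replicate number as a block (0.0643) and with the length offset (log2 fold change 0.48, adjusted p = 0.145). It was also lost in 6 of 8 fits that left out 1 library, with adjusted p from 0.0731 to 0.103. *Zeb2* and *Nfib*, the most abundant of the list, had log2 fold changes of 0.14 (adjusted p = 0.263) and 0.07 (adjusted p = 0.614). *Zeb2* was 0.018 with the length offset and 0.38 with the most exonic transcript. *Nfib* turned to -0.13 with the offset and -0.060 with the most exonic transcript.

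Of 15 precursor surface and matrix genes, 14 were in the table and 8 over 8 CPM. Of these, 1 rose, 0 fell and 3 were below 0, with a median of 0.05, beside the same 2.06% and 56.6% over all genes. Over 1 CPM 7 of 14 were below 0 with a median of -0.07, and the length offset gave a median of -0.06, so the sign of the median depended on these choices. The 1 that rose was *Pcdh15*, a protocadherin of precursors, by 0.57 on the log2 scale (standard error 0.117, edgeR adjusted p = 0.0348). Its counted interval is among the class over 300 kb, and with the length offset its log2 fold change was 0.23 (adjusted p = 0.505). Its call was lost as well in the fit over 1 CPM (adjusted p = 0.0557), with no filter (0.0583), with the most exonic transcript (0.192) and in 6 of 8 fits without 1 library (0.0556 to 0.115). *Tnr*, a matrix glycoprotein, had 0.24 (adjusted p = 0.192) and *Cspg5*, a membrane proteoglycan, -0.15 (adjusted p = 0.290). *Tnr* was 0.067 with the length offset, and *Cspg5* was -0.086 with that offset and -0.086 without control replicate 3.

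Of 12 genes of committed precursors and newly formed oligodendrocytes, 8 were over 8 CPM, with 0 past the threshold, 4 below 0 and a median log2 fold change of 0.01, beside 2.19% past the threshold and 56.6% below 0 over all genes. *Lims2* is in this list, and most of its counts are those of the *Gpr17* interval inside it. Over 1 CPM 5 of 11 were below 0 with a median of 0.02, and the median was -0.10 with the length offset. *Bcas1*, which marks early myelinating cells, had 2810, 3473, 2687 and 4088 normalized counts in control replicates 1 to 4. In *Fezf2 shRNA* replicates 1 to 4 it had 1836, 1560, 2350 and 2386. The treatments did not overlap, and the log2 fold change of -0.68 (standard error 0.161) had an edgeR adjusted p of 0.0570, just over the threshold, and 0.000736 by DESeq2. *Fyn*, a kinase of early myelination that neurons also express, differed the other way. It had 4008, 4544, 4456 and 4641 normalized counts in control replicates 1 to 4 and 5029, 4985, 5307 and 5066 in *Fezf2 shRNA* replicates 1 to 4, again without overlap. How many of all genes did not overlap in this direction was not counted. The log2 value of *Fyn* was 0.21, with an adjusted p of 0.102 by edgeR and 0.0237 by DESeq2, but 0.024 with the gene-length offset (adjusted p = 0.930) and 0.038 with the most exonic transcript. *Bcas1* had -0.76 with that offset (adjusted p = 0.145).

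Of 24 growth factors, receptors and signals that act on precursors, 18 were over 8 CPM, with 0 past the threshold, 13 below 0 and a median log2 fold change of -0.08, beside 2.19% past the threshold and 56.6% below 0 over all genes. Over 1 CPM 16 of 24 were below 0, and the median with the length offset was -0.10. *Lingo1*, an inhibitor of differentiation that neurons express in abundance, had 0.13 (adjusted p = 0.487), and *Apc*, a regulator of WNT signalling, 0.26 (adjusted p = 0.111). Of 10 cell division genes, 1 was over 8 CPM and it was not past the threshold, beside the same 2.19% over all genes.

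Markers of the other cell types of M1 were detected in every library. Over 8 CPM were 10 of 10 astrocyte, 9 of 10 microglia, 10 of 10 neuron, 2 of 8 endothelial, 3 of 8 pericyte and 0 of 8 meningeal fibroblast markers. None of those tested was past the threshold, beside 2.19% of all genes tested. That count cannot be read as a result about these lists. Summed normalized counts of 8 pericyte markers, the other source of *Cspg4*, ran from 4752 to 6461 in controls and from 4320 to 5139 in *Fezf2 shRNA* libraries, highest in control replicate 4. Those of 8 endothelial markers ran from 3192 to 4503 in controls, also highest in replicate 4, and from 2988 to 3516 in *Fezf2 shRNA* libraries. Those of 10 astrocyte markers ran from 71833 to 81678 and from 71842 to 77774. Those of 10 neuron markers ran from 215910 to 241370 and from 220270 to 235920. Meningeal fibroblast markers, 8 genes, ran from 572 to 2101 in controls and from 525 to 2527 in *Fezf2 shRNA* libraries. Those of 10 microglia markers ran from 11484 to 15748 in controls and from 15112 to 27589 in *Fezf2 shRNA* libraries, overlapping through control replicate 1. The part of tissue composition in the values of the 10 genes was not tested.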

How the data were processed

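RNA-seq libraries were made from total RNA of M1 with a TruSeq total RNA kit, 1 library per sample and 4 per treatment, grouped by the titles and labels. The authors aligned reads to mm10 with TopHat2 2.1.1 and deposited raw counts per Ensembl transcript, made with bedtools 2.26.0 over genomic intervals. The authors' DESeq2 comparison, in another deposited table, was not used. Of 94647 transcripts, 91320 were found in GENCODE M21 (GRCm38), and 1.824% of counts lay on transcripts outside it. Counts of 1 transcript per gene (the lowest Ensembl number) were tested with edgeR 4.0.16 in R 4.3.3 (TMM, quasi-likelihood, no covariate, Benjamini-Hochberg over all genes tested), for genes with over 8 CPM in at least 4 libraries. Genes passed the threshold at an adjusted p up to 0.05 with a log2 fold change of 0.2 or more in either direction. Intervals are 95% and use the degrees of freedom of that fit. Exact permutation tests were two-sided, over the 70 splits of log2 normalized counts plus 0.5. The design gives 4 animals per treatment, and each library was taken as 1 animal. Alternatives were DESeq2 1.42.0, other scalings, filters, transcripts and thresholds, a replicate block, a gene-length offset (loess, span 0.3), each library left out, and, chosen after seeing the data, the legacy and robust forms of the edgeR fit. The steps were tested on simulated data. Library depth was 54684016 to 58003814 counts. No 2 libraries held identical counts. The 10 genes and all lists were chosen with earlier results of these data known. Named were all 10 genes, *Fezf2*, genes that overlap them, and of each lineage list the 2 most abundant genes and those past the threshold with the smallest p. A gene under this rule is not reported here. The hairpin sequence is the study's, and transcript sequences are from GENCODE M21. Python 3.11.15 and matplotlib 3.10.9 drew the plots.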

Additional observations from a re-analysis of the deposited data

Results flagged for a closer look

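In 46 groups of 4 libraries examined for a library that stands apart, 2 were found, where chance alone gives about 1 in 20. For *Cspg4*, control replicate 4 had 675 normalized counts against 510 to 526 in the other controls, a gap of 0.903 of the range of the group. For *Cspg5*, control replicate 3 had 9085 normalized counts against 7763 to 7966 in the other controls, a gap of 0.846 of the range. Control replicate 4 also had the highest summed counts of myelin, pericyte and endothelial markers among the controls.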

How the results depend on the processing

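Of the 7 genes over 8 CPM, 0 were past the threshold as decreased in the main fit. The count was 1 (*Olig1*) with DESeq2 with or without its prior and with the robust edgeR fit. It was also 1 (*Olig1*) at an adjusted p of at most 0.1 with no fold limit. Among genes over 1 CPM, DESeq2 also called *Sox10* as decreased, without its prior (-0.70, adjusted p = 0.0137) and with it (-0.47, adjusted p = 0.0138). None was past the threshold as increased in any alternative. The number whose treatments did not overlap was 1, and 1 to 3 with a library left out: 3 without control replicate 1 (5.48% of all genes over 1 CPM), and 2 when *Fezf2 shRNA* replicate 4 was left out (5.82%), against 3.82% with all libraries. The count over all genes, 218, was 111 with the filter over 1 CPM, 85 with no filter, 752 and 734 with DESeq2 without and with its prior, and 121 with the most exonic transcript. At an adjusted p of at most 0.1 with no fold limit, which changes both parts of the threshold, it was 565. It was 2 with the gene-length offset, and 2 with that offset and the replicate block together. With a library left out it ran from 0 to 401: 0, 401, 121 and 9 without control replicates 1, 2, 3 and 4, and 12, 8 and 17 without *Fezf2 shRNA* replicates 1, 3 and 4. The sign of small fold changes turned when a library was left out: *Nkx2-2* ran from -0.14 to 0.20, *Cspg4* from -0.12 to 0.027 and *Enpp6* from -0.14 to 0.027. *Nfib* was -0.13 with the gene-length offset, -0.13 with offset and block, and -0.060 with the most exonic transcript. The cause was not tested.

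The deviations of same-numbered libraries from their group means had correlations of 0.30, 0.088, -0.133 and 0.168 for numbers 1 to 4. Not all were over 0.1 and no label ties the numbers to a shared litter or day, so the libraries were not treated as pairs. With the replicate block 89 genes were called and 0 of the 10, and *Olig1* had a log2 fold change of -0.34 (adjusted p = 0.0839). Replicates 1 and 4 correlated best with their own number, and 2 and 3 did not.

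Among the 10 genes the coefficient of variation between controls was highest for *Nkx2-2* (29.6%), *Sox10* (29.5%), *Myrf* (27.7%) and *Olig2* (25.9%), and between *Fezf2 shRNA* libraries for *Myrf* (34.7%). *Nkx2-2* also had the fewest raw counts, 44 to 101 per library.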
